A study of Mus musculus with 6 samples.

Results

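The cells described here are wild-type cells of the Isl1 lineage, sorted from mouse embryos at E9.0 and profiled on 3 Affymetrix arrays, 3 of the 6 arrays of the series. They were chosen by their titles, which call them wild-type cardiac progenitors 1, 2 and 3. The lineage was marked with Isl1-cre and a Rosa-YFP reporter, and YFP+ cells were collected by flow cytometry with no stabilised β-catenin. Beyond this the labels do not give the β-catenin genotype of the wild-type embryos. The other 3 arrays hold YFP+ cells of embryos that carry Isl1-cre, Rosa-YFP and Beta-catenin (loxP ex3), and no comparison with them is made. The series asks, by its title, how Notch1, β-catenin and Isl1 set the fate of cardiac progenitors, and the wild-type arrays are its baseline.

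Isl1 encodes a LIM-homeodomain transcription factor that marks the second heart field, the pharyngeal mesoderm that adds the right ventricle, the outflow tract and much of the atria to the heart tube. Isl1 is also made in pharyngeal endoderm, in motor and sensory neurons and in the hindlimb field. Cre driven by Isl1 switches the reporter on for good, so YFP also stays in the descendants of every cell that once made Isl1, whether or not they still make it. YFP+ cells are therefore a mixture by design, and the number of embryos behind an array is not stated. Whether all RNA described below came from cells of the Isl1 lineage was not tested.

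Each array held 45101 probe sets, of which 34945 were named for a single gene and gave 18193 genes. Where a gene had several probe sets, the set with the highest mean over the 3 arrays stood for it. Levels are log2 signals, and a signal depends on the probes as well as on the transcript. The order of genes given below is thus an order of signals and not of transcript numbers. Among the 9010 genes with several probe sets, the brightest and the dimmest set of a gene differed by a median of 1.82, and by over 3 in 2390 genes. The 3 arrays had medians over all probe sets of 6.47, 6.47 and 6.48. The labels speak of independent experiments without tying arrays to embryos, so the spread between arrays may be in part technical.

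The level below which a signal could not be told from an empty probe set was taken from 27 control probe sets for bacterial genes. Their wild-type means ran from 2.57 to 5.08 with a median of 3.20, and their 95th percentile, 4.80, is called the background level here. On all 3 arrays 13764 of 18193 genes, or 75.7%, were above it. A further 969 genes were above it on 1 or 2 arrays, and 3460 on no array. Gene levels ran from 2.17 to 14.24 with a median of 6.97, and the middle of the distribution lay between 5.09 and 8.86, its lower and upper quartiles. Receptors for smell, pheromones and taste, which serve sensory organs that have not formed at this stage, gave the contrast: 9 of 76 were above the background level and their median was 3.31. A second, higher line was drawn at the median gene, 6.97, and 8510 genes, or 46.8%, were above it on all 3 arrays.

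**Figure D1:**
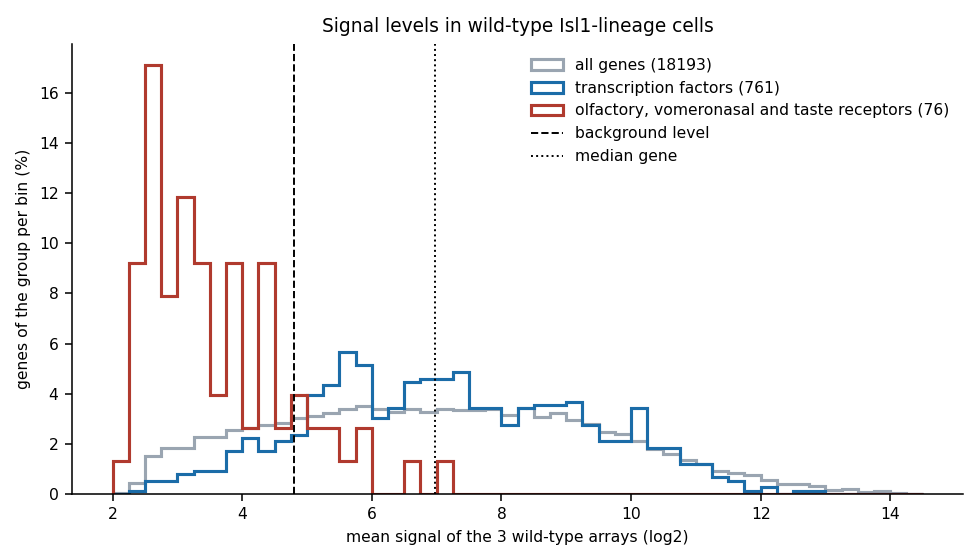
Distribution of the mean log2 signal over the 3 wild-type arrays (x axis) as the percentage of each group per bin of 0.25 (y axis), for all 18193 genes, 761 transcription factors and 76 chemosensory receptors. The dashed line marks the background level of 4.80 and the dotted line the median gene at 6.97, and the chemosensory receptors lie mostly to the left of the dashed line.

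The brightest genes of the wild-type cells were those of protein synthesis, RNA handling, the cytoskeleton and embryonic haemoglobin. Hnrnpab, an RNA-binding protein of the hnRNP family, gave the highest signal with 14.24, 14.25 and 14.23 on the 3 arrays. Rpl41, a protein of the large ribosomal subunit, followed with 14.17, 14.27 and 14.21. Ran, the GTPase of nuclear transport, read 14.26, 14.12 and 14.17. The values of these genes overlapped between arrays, so their order did not hold on every array. Pebp1, Hmgn1, Rpl13a, Malat1, Rpsa, Tmsb10 and AY036118 completed the first 10, between 13.96 and 14.16 on average. Malat1 is a nuclear noncoding RNA, Hmgn1 a nucleosome-binding protein and Tmsb10 a thymosin that binds actin monomers.

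**Figure D2:**
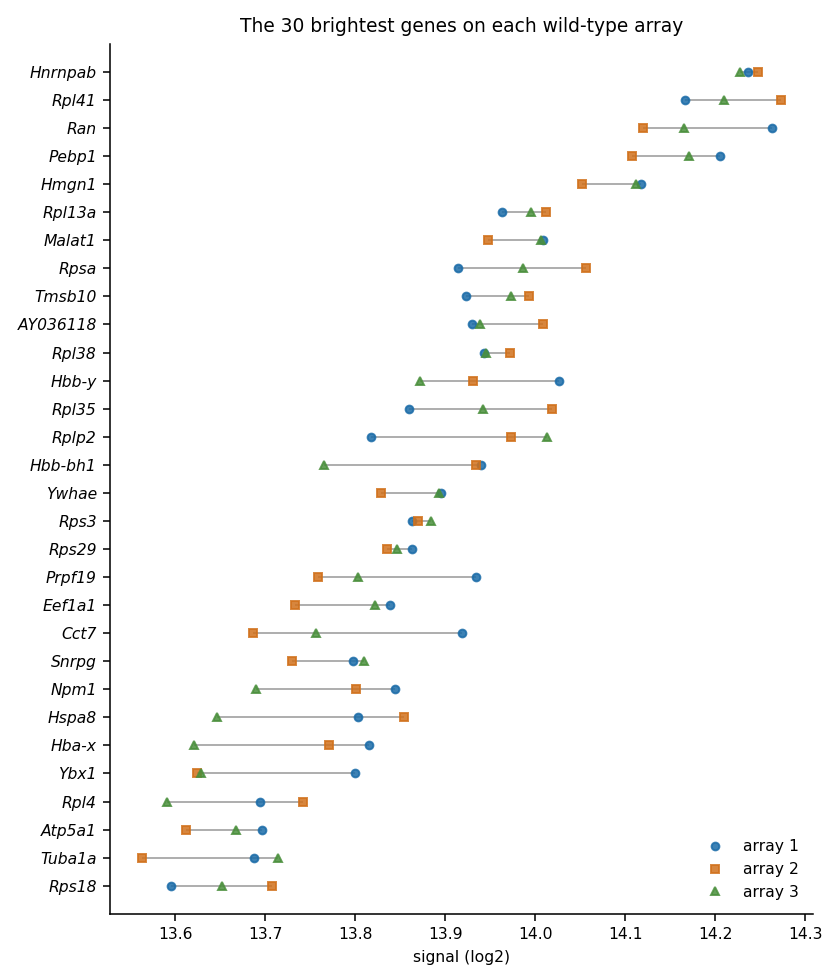
The 30 genes with the highest mean signal, in order from the top, with the log2 signal on wild-type array 1 (circles), 2 (squares) and 3 (triangles) and a line from the lowest to the highest. Hnrnpab is first at 14.24, Hbb-y, Hbb-bh1 and Hba-x stand at ranks 12, 15 and 25, and the widest range among the 30 is that of Cct7 at 0.23.

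Of the 100 brightest genes, 66 belonged to the gene classes that were listed. Cytosolic ribosomal proteins gave 30 of the 100, from 50 measured, where the 100 are 0.55% of all genes, and their median level was 13.20. Chaperones gave 9, among them Cct7 of the chaperonin ring at 13.79 ± 0.12 (SD, n = 3) and Hspa8, the constitutive HSP70, at 13.77 ± 0.11 (SD, n = 3). The hnRNP and splicing families gave 7, with Snrpg and Ybx1 behind Hnrnpab. Translation factors gave 5, led by Eef1a1 at 13.80 ± 0.06 (SD, n = 3), and the cytoskeletal class also gave 5, with Tmsb10, Tuba1a and Actb as its brightest members. The respiratory chain gave 4, with Atp5a1, Ndufb7 and Cox5b in front, and glycolysis gave 2, Ldha and Pgk1, its lactate dehydrogenase and its first ATP-making kinase. Ctnnb1, which encodes β-catenin, read 12.98 ± 0.03 (SD, n = 3) and stood at rank 103, just outside this group.

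A bright class could still hold dark members. Rps16 and Rpl37, ribosomal proteins that every cell uses, read 3.52 and 4.19 on average through a single probe set each, below the background level on all 3 arrays. Rpl39l and Rpl3l, which are tissue-restricted copies, read 4.17 and 4.37. The other 46 cytosolic ribosomal proteins were above the background level. A low reading on a single probe set thus did not show that a gene was off. Of the 100 brightest genes, 39 were read by probe sets whose names mark probes shared with other transcripts. Of the probe sets that stood for all 18193 genes, 8.59% had such names.

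Embryonic haemoglobins, the oxygen carriers of primitive red cells, stood among the brightest genes of the sorted cells. Hbb-y, the embryonic epsilon-type globin, read 14.03, 13.93 and 13.87 on the 3 arrays. Hbb-bh1, the other embryonic β-like globin, read 13.94, 13.93 and 13.77, and Hba-x, the embryonic α-like globin, 13.82, 13.77 and 13.62. In each of the 3 genes array 3 was lowest, by less than 0.2. Hba-a2, an α-globin kept in adult life, read 12.06 ± 0.04 (SD, n = 3), while Hba-a1 at 4.07 was below the background level on its 1 probe set. The promoters of Hba-x and Hbb-y are shown because these genes gave some of the brightest signals of any cell type marker list, and those of Afp and Fgb because both genes were lower on array 1, as described further on. Each line gives the 160 bases before the start of the gene from RefSeq on GRCm38.p6, 5′ to 3′ along the gene. Capitals mark TATAAA, the letters of a TATA box, AGATAA, those of a GATA site, in the globins, and GTTAAT, a half-site of the liver factor HNF1, or TATAAA in Afp and Fgb. Both strands were searched, so ATTAAC is GTTAAT on the opposite strand. The lines come from chr11:32276440-32276599 (+ strand), chr7:103853208-103853367 (- strand), chr5:90490554-90490713 (+ strand) and chr3:83049864-83050023 (- strand), in the order printed.
Hba-x: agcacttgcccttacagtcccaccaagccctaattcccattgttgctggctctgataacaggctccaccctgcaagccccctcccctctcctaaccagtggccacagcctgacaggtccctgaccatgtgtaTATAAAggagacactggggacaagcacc
Hbb-y: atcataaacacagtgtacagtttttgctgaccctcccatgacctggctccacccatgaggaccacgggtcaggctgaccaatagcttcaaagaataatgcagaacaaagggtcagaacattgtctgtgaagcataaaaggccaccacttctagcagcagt
Afp: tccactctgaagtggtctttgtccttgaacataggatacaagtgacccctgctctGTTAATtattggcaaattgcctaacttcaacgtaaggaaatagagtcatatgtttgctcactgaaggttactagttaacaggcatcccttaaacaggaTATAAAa
Fgb: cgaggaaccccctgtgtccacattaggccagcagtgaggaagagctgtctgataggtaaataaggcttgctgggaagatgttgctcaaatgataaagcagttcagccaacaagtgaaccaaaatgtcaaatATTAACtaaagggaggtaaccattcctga

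The Hba-x stretch held TATAAA from -28 to -23, counted from the gene's start. The Hbb-y stretch held neither TATAAA nor AGATAA, which says only that these letters are not in this window. In Afp GTTAAT lay from -105 to -100 and TATAAA from -7 to -2 of the annotated start, and in Fgb GTTAAT lay on the opposite strand from -29 to -24. None of these matches overlapped another. In windows of 300 bases, 250 before to 50 after the start, 7.1% of all 32851 promoters held GTTAAT, 13.6% TATAAA and 11.2% AGATAA. The 22 visceral endoderm genes with a window had 29 windows, of which 24.1% held GTTAAT, 20.7% TATAAA and 13.8% AGATAA. Those with GTTAAT belonged to 7 genes, namely Afp, Alb, Apoc2, Dab2, Fga, Fgb and Hnf4a. Dab2 is among these although it was highest on array 1. Ttr, Rbp4 and Apom are not, although they were lower on array 1 as Afp and Fgb were. Whether GTTAAT goes with the level on array 1 was not tested. The 13 erythroid genes with a window had 14 windows. AGATAA was in 5 of these (35.7%), TATAAA also in 5 (35.7%) and GTTAAT in none. A match is a description of letters and not a binding site.

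Transcription factors formed a middle layer of the signals. The list held 761 measured genes in 24 families, cofactors and a few chromatin- or RNA-binding regulators included. Of these, 640 (84.1%) were above the background level on all 3 arrays, against 75.7% of all genes, and 78 on none. Above the median gene stood 353 (46.4%), close to the 46.8% of all genes. None was among the 100 brightest genes and 20 were among the 1000 brightest.

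Sox11, a SOXC factor of progenitor cells, gave the highest signal of the list with 12.83, 12.69 and 13.04. Hmga2, an architectural chromatin protein of embryonic cells, read 12.83, 12.67 and 12.72. Tsc22d1, Plagl1 and Lin28a followed at 12.23, 12.21 and 11.99, the last an RNA-binding protein that blocks let-7 maturation. Lin28a was highest on array 1 at 12.38, against 11.83 and 11.77. Nr2f1 and Nr2f2, the COUP-TF nuclear receptors, read 11.55 ± 0.23 and 11.48 ± 0.07 (SD, n = 3), and Nr2f2 is known for its part in atrial identity. Tead1, Tead2 and their partner Yap1, the nuclear arm of Hippo signalling, read 11.41 ± 0.13, 11.08 ± 0.14 and 11.11 ± 0.04 (SD, n = 3). Sall4 and Mycn, both linked to embryonic growth, read 11.24 and 11.22. Hoxa3 and Zic1, factors of the pharyngeal and hindbrain axis and of the neural tube, read 10.92 and 10.85.

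Isl1 itself was clearly measured. It read 9.24, 9.36 and 9.77 on the 3 arrays, 9.46 ± 0.28 (SD, n = 3), and its 2 probe sets differed by little, at 9.46 and 9.35. It was the brightest of the 12 LIM-homeobox genes and stood at rank 121 among the transcription factors. Ldb1, the adaptor that binds LIM domains, read 10.08 ± 0.13 (SD, n = 3), and Notch1, the receptor in the series' title, 9.89 ± 0.20 (SD, n = 3).

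The other factors of the second heart field and pharyngeal mesoderm were spread from 10.04 down to the background level. Of 29 measured markers, 28 were above the background level, against 75.7% of all genes, and 15 (51.7%) above the median gene, near the 46.8% of all genes. Meis1, a TALE homeobox factor, led with 10.14, 10.04 and 9.93, ahead of Twist1 at 9.54, 9.82 and 9.56. Mef2c, a MADS-box factor of early heart muscle that Isl1 is known to activate, read 9.16, 8.93 and 8.58. Tbx20 read 9.18 ± 0.30, Foxf1 8.69 ± 0.87 and Gata6 8.01 ± 0.30 (SD, n = 3). Tbx1, the pharyngeal T-box factor, read 8.11, 7.66 and 8.11. Gata4 and Tbx5, which also act in the first heart field, read 7.11, 8.27 and 7.88 and 6.95, 7.74 and 8.18, both lowest on array 1. The second probe set of Gata4 averaged 6.57. That of Tbx5 read 4.05, 4.12 and 5.25, above the background level on array 3 only. Hand1 and Hand2, bHLH factors of the left and right ventricle, read 6.78 ± 0.17 and 6.72 ± 0.48 (SD, n = 3), just under the median gene. Among the growth factors, Fgf10 read 6.35 ± 0.12 and Fgf8 5.65 ± 0.45 (SD, n = 3).

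Nkx2-5, the homeobox factor of the early heart, was the member of this list that did not pass. It read 4.89, 4.95 and 4.63 on its single probe set, above the background level of 4.80 on 2 arrays and below it on array 3. As the ribosomal proteins above show, such a reading describes the probe set and does not show that the gene was off. Neighbours in the order, such as Tbx1, Gata4 and Tbx5, did not differ beyond their spread, and differences between probe sets of different genes cannot be read as differences in RNA.

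**Figure D3:**
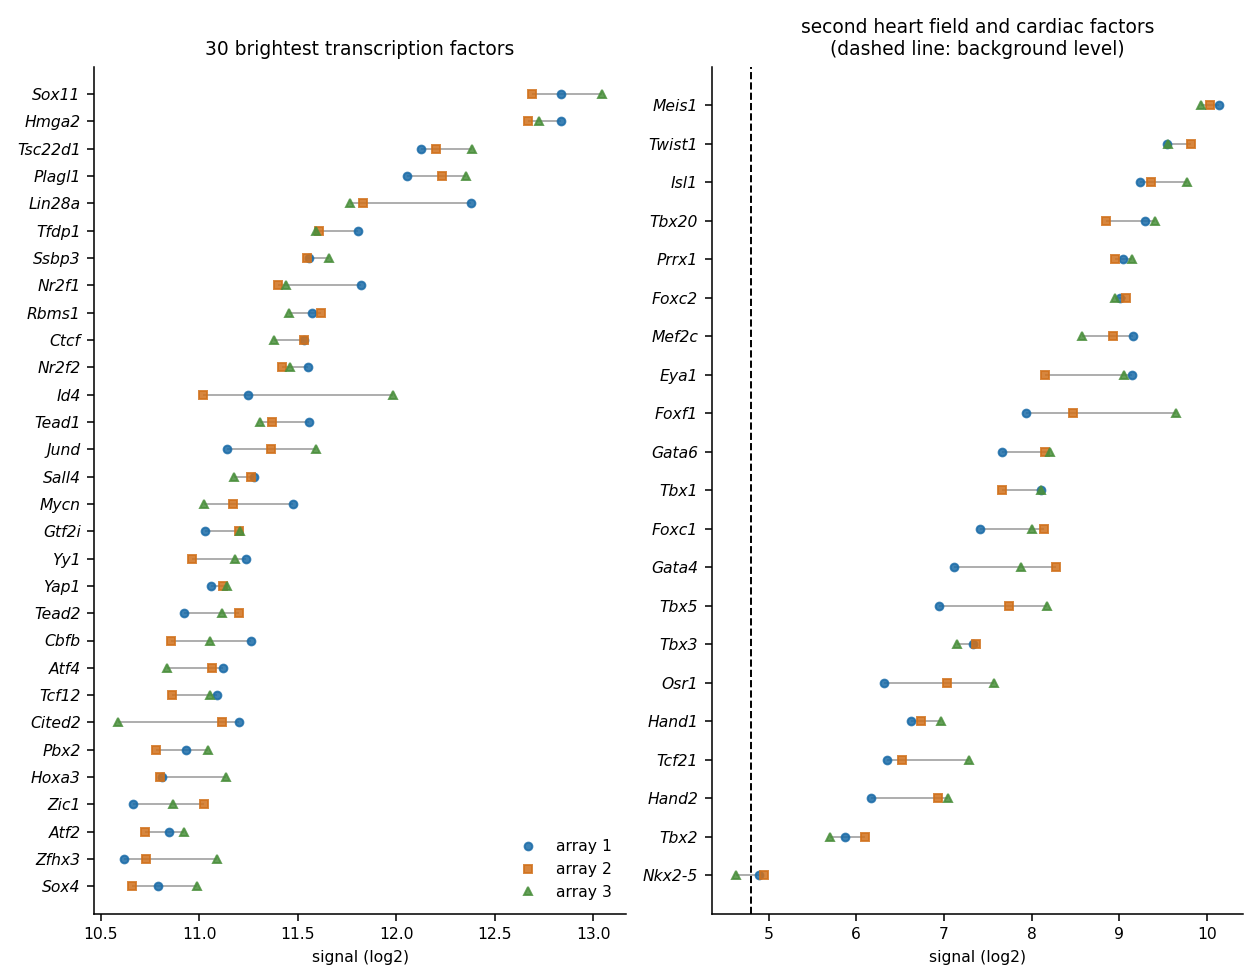
Log2 signals on wild-type array 1 (circles), 2 (squares) and 3 (triangles), with a line from lowest to highest, for the 30 brightest transcription factors (left) and 21 factors of the second heart field and heart (right). Sox11 leads the left panel at a mean of 12.85, and in the right panel Nkx2-5 alone straddles the dashed background level of 4.80.

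The families of transcription factors are read beside the 75.7% of all genes and 84.1% of all listed factors above the background level. All 17 TALE homeobox genes, all 9 GATA-type genes and all 9 MADS, MEF2 and TEAD genes were above it, as were 23 of 26 SOX, TCF and LEF genes and 33 of 37 forkhead genes. The SOX and forkhead shares, 88.5% and 89.2%, lay near that of all listed factors. The T-box family gave 9 of 15 (60.0%) and the paired-like homeobox genes 16 of 27 (59.3%). The bHLH genes of tissue determination gave 29 of 45 (64.4%) and Hox genes 20 of 33 (60.6%). Within the Hox clusters fewer genes were above the background level in the higher paralogue groups, which lie toward the 5′ end of each cluster and act further back in the body. Of the paralogue groups 1 to 3, 6 of 7 genes were above the background level, of groups 4 to 9 11 of 16, and of groups 10 to 13 3 of 10. Hoxa3 and Hoxb4 were the brightest at 10.92 and 10.44. Hoxa10, Hoxc10, Hoxd10, Hoxd11, Hoxa13, Hoxc13 and Hoxd13 were below the background level on all 3 arrays.

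Receptors and ligands of the major signalling pathways were counted against the same 2 lines, which 75.7% and 46.8% of all genes passed. All 15 Wnt receptors and coreceptors, 4 Notch receptors, 5 FGF receptors, 7 BMP receptors, 6 Hedgehog receptors and their partners, 6 retinoic acid receptors and 5 VEGF receptors measured were above the background level on all 3 arrays. Above the median gene stood 13 of the 15 Wnt receptors, with the coreceptor Lrp6 at 11.43, 11.39 and 11.50 and the frizzled receptors Fzd7, Fzd3 and Fzd2 between 10.67 and 10.73 on average. Notch2 read 11.99 ± 0.05, Bmpr1a 11.80 ± 0.05, Ptch1 11.54 ± 0.15 and Fgfr2 10.67 ± 0.09 (SD, n = 3).

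Of the ligands, 16 of 19 Wnt genes, 12 of 18 FGF genes, 8 of 11 BMP genes, 5 of 5 Notch ligands, 3 of 3 Hedgehog genes and 5 of 5 VEGF-type genes were above the background level. The Wnt, FGF and BMP shares were 84.2%, 66.7% and 72.7%, near the 75.7% of all genes. Above the median gene stood 5 of 19 Wnt, 2 of 18 FGF and 2 of 11 BMP genes, or 26.3%, 11.1% and 18.2%, against 46.8% of all genes. Wnt5a, a ligand of β-catenin-independent signalling in the outflow tract, read 9.90, 9.62 and 10.45. Jag1 and Dll1 read 10.07 ± 0.10 and 9.90 ± 0.25 (SD, n = 3), and Shh, the endodermal ligand of the second heart field, 8.59 ± 0.18 (SD, n = 3). Bmp10, a ligand of the trabecular myocardium, read 3.55, 3.80 and 5.02 and passed the background level on array 3 only.

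Markers of several cell types were read in the sorted cells. In a bulk sample, fewer cells of a type and less RNA per cell cannot be told apart, so the counts below say which RNAs were measured and not how many cells held them. They are read beside the shares of all genes, 75.7% above the background level and 46.8% above the median gene. Of 31 heart muscle markers 30 were above the background level and 18 (58.1%) above the median gene. Tpm1, the α-tropomyosin, read 12.68, 12.74 and 12.68 and Atp2a2, the calcium pump of the sarcoplasmic reticulum, 12.41, 12.29 and 12.34. The probe sets of Tpm1 ran from 2.39 to 12.70 on average and those of Atp2a2 from 6.81 to 12.35. Which transcripts of these genes the bright sets bound was not tested. Tnnt2 and Actc1, cardiac troponin T and cardiac actin, read 10.90 ± 0.19 and 10.86 ± 0.32 (SD, n = 3). The myosin heavy chains Myh6 and Myh7 read 10.36, 10.97 and 9.83 and 10.09, 10.74 and 11.11. Sln, the sarcolipin of atrial muscle, was the exception at 4.22, below the background level on every array.

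Endothelium and endocardium gave 23 of 24 above the background level and 13 (54.2%) above the median gene, with Kdr, the VEGF receptor 2, at 10.03, 9.34 and 9.16. Smooth muscle gave 15 of 16 and 9, with Tpm2 and Cald1 at 10.35 and 10.34 and Acta2, smooth muscle actin, at 8.73, 9.69 and 9.46. The epicardial list gave 10 of 11 and 3. Pharyngeal and gut endoderm gave 18 of 20 and 10, with Epcam, a surface protein of epithelia, at 10.85, 10.48 and 10.28. The shares of the endothelial, the smooth muscle (56.2%) and the endodermal list over the median gene lay near the 46.8% of all genes. The heart muscle share, 58.1%, was only slightly above that of smooth muscle, so it did not set heart muscle clearly apart from all genes.

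Markers of neural crest and neural progenitors had the highest shares over the median gene of all 22 lists. All 14 neural crest markers were above the background level and 11 above the median gene, among them Dlx2 at 10.86, 10.48 and 9.93 and Sox9 at 9.61 ± 0.06 (SD, n = 3). All 16 markers of neural progenitors were above the background level and 12 above the median gene, with Msi1, an RNA-binding protein of neural stem cells, at 11.60, 11.81 and 12.01 and Pax6 at 10.27 ± 0.19 (SD, n = 3). Neurons gave 24 of 26 and 14 (53.8%, near the 46.8% of all genes), led by Tubb3, the neuronal tubulin, at 11.03, 10.85 and 11.62. Primitive erythroid cells gave 15 of 17 and 12, with Slc4a1, the anion exchanger of red cells, at 12.32, 12.06 and 11.63. Rhag and Hba-a1 were below the background level.

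Of the 22 lists, those that follow had the lowest shares over the median gene, 0% to 6.67%. Most of them name mature or extraembryonic tissues. Photoreceptor genes gave 5 of 15 above the background level and 0 above the median gene, lymphocyte genes 6 of 15 and 0, spermatid genes 7 of 15 and 1, and pancreas genes 6 of 11 and 0. Trophoblast gave 3 of 9 and 0, and those 3 were Hand1, Ascl2 and Cdx2, of which Hand1 also stands in the second heart field list and Cdx2 in the paraxial list. Germ cell and pluripotency genes gave 7 of 16 and 1, Lin28a, and macrophage genes 9 of 18 and 1, Laptm5. A count of genes over the background level was thus no sign of a cell type by itself. These lists were picked by their low share over the median gene, so that share is no separate evidence about them.

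Single members ran against these low counts. Prm1, the sperm protamine, read 9.87, 10.06 and 10.07 on its brightest probe set, while the dimmest of its 3 probe sets read 2.62 on average. Laptm5, a lysosomal protein of blood cells, read 9.70 ± 0.10 (SD, n = 3), with 5 probe sets from 3.45 to 9.70. Ptprc, the pan-leukocyte CD45, read 3.72, 4.18 and 3.46, and C1qa and Adgre1 were also below the background level on every array. Which transcripts the bright probe sets of Prm1 and Laptm5 bound was not tested.

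**Figure D4:**
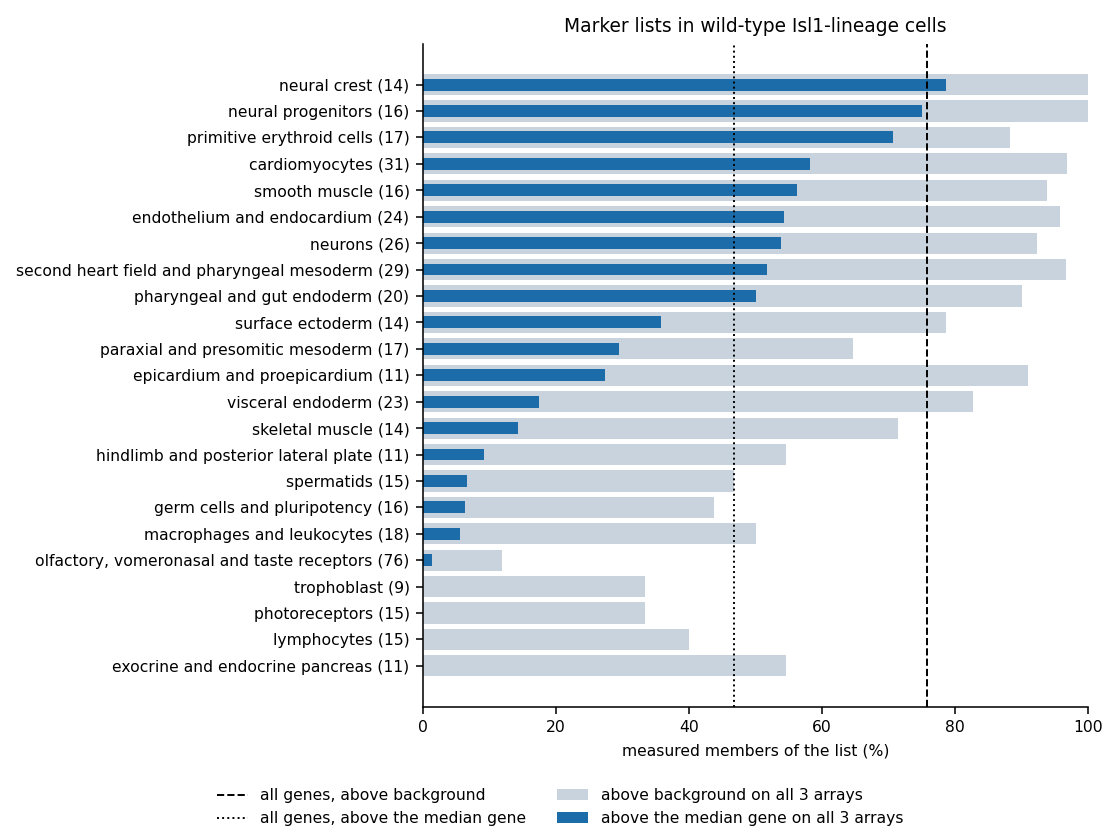
Percentage of the measured members of each marker list (number in brackets) that were above the background level on all 3 wild-type arrays (wide pale bars) and above the median gene on all 3 (narrow dark bars). The dashed and dotted lines give the same shares over all genes, 75.7% and 46.8%, and the dark bars run from 0% for photoreceptors, lymphocytes, pancreas and trophoblast to 78.6% for neural crest.

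The lists of later or neighbouring tissues stood between these groups. Visceral endoderm, the extraembryonic layer around the yolk, gave 19 of 23 above the background level and 4 above the median gene. Paraxial mesoderm gave 11 of 17 and 5, skeletal muscle 10 of 14 and 2, surface ectoderm 11 of 14 and 5, and hindlimb 6 of 11 and 1.

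Most genes read nearly the same on the 3 arrays, although 3 arrays limit how well a spread can be known. The median SD over the 3 arrays was 0.18, its upper quartile 0.28 and its 95th percentile 0.52. Of 18193 genes, 908 (4.99%) had a range of 1 or more, which is a 2-fold span or wider. Among the 14733 genes above the background level on at least 1 array, 840 had such a range and 85 one of 2 or more. The spread was largest in the middle of the scale. With the genes divided at the quartiles into 4 bands of level, from dim to bright, the median SD was 0.16, 0.20, 0.20 and 0.15, and 4.51%, 8.60%, 5.39% and 1.47% of genes had a range of 1 or more. Of the transcription factors, 87 of 761, or 11.4%, had a range of 1 or more.

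The steadiest genes of the brightest band varied by an SD of 0.01 or less. They were Wsb1, Use1, Psmc6, Tceal8, Skp1, Sart1, Ier3ip1, Cox20, Hnrnpa1 and Bag1, from 8.92 for Ier3ip1 to 13.06 for Hnrnpa1. Wsb1 read 11.01 on each of the 3 arrays. Of the usual reference genes, Actb had an SD of 0.04, Ywhaz 0.08, Hprt 0.11 and Tbp 0.12.

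Array 1 stood apart most often. Among the 840 genes with a range of 1 or more that were above the background level on at least 1 array, array 1 was the one farther from the other two in 374, array 2 in 210 and array 3 in 256. On array 1 these genes were low in 238 cases and high in 136. Pairs of arrays differed by 1 or more in 393 genes (arrays 1 and 2), 463 (1 and 3) and 338 (2 and 3) of 14733. The control probe sets for the 3′ and 5′ ends of Gapdh differed by 1.53 on array 1, 1.09 on array 2 and 1.12 on array 3, and those for actin by -0.01, 0.04 and 0.15. Whether this has a part in the differences between arrays was not tested.

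The Hox genes of the middle paralogue groups were lower on array 1. Of the 16 genes of groups 4 to 9, 14 were lower on array 1 than on both other arrays, where 37.3% of all genes were, and the median difference from the mean of arrays 2 and 3 was -1.20. Hoxb5 read 8.45, 10.42 and 10.43, Hoxc5 6.83, 8.51 and 8.78, Hoxb7 4.96, 6.29 and 5.97, and Hoxd9 4.78, 7.18 and 6.87. In these 4 genes array 1 lay at least 1 below each other array. Of groups 1 to 3 the count was 4 of 7, with Hoxb1 higher on array 1 at 8.21 against 7.54 and 7.58, and of groups 10 to 13 it was 3 of 10. The antisense RNAs Hoxb5os and Hoxd3os1 read 4.05, 8.88 and 7.90 and 3.16, 8.43 and 6.25, with array 1 below the background level in both.

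Several genes of the visceral endoderm list were lower on array 1. Which tissue made their RNA was not tested. Afp, α-fetoprotein, read 4.08 on array 1, below the background level, and 11.51 and 11.52 on arrays 2 and 3, the widest range of all named genes. Its 5 probe sets differed in this. In 3 of them array 1 was lower by over 4, and in the other two the arrays differed by under 0.5. Ttr, transthyretin, read 7.49, 10.52 and 9.66, Rbp4, the retinol carrier, 5.58, 9.25 and 7.92, Apom 6.80, 9.03 and 8.02, and Fgb, fibrinogen β, 6.07, 7.60 and 8.47. In each of these the lowest value was that of array 1. Dab2, an endocytic adaptor, and Slc39a8, a metal transporter, read 10.16, 10.08 and 10.03 and 11.53, 11.17 and 10.91, highest on array 1. Over the whole list, 13 of 23 genes were lowest on array 1, against 37.3% of all genes, and the mean of the list was 0.68 below its mean over the 3 arrays there, 0.40 above on array 2 and 0.28 above on array 3. Fga was below the background level on every array.

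Genes of the first skeletal muscle and of the epicardium were also lower on array 1 in part. Myog, the myogenic bHLH factor, read 5.37, 9.08 and 7.74 and Myh3, embryonic myosin, 7.07, 9.57 and 7.87, while Myod1 was near 5.7 on all 3. The skeletal muscle list was 0.44 below its mean on array 1 and 0.52 above on array 2. Aldh1a2, the retinoic acid synthase of the posterior heart field and epicardium, read 7.09, 9.12 and 8.69, and Wt1 5.42, 6.79 and 7.45. The epicardial list was lowest on array 1 in 8 of 11 genes, against 37.3% of all genes, and highest on array 3 in 8 of 11, against 35.3% of all genes. In heart muscle 17 of 31 genes were lowest on array 1, against the same 37.3%. Among them was Myl2, the ventricular light chain, at 7.97 on array 1 and 9.28 ± 1.14 (SD, n = 3) over all 3. The heart muscle list was 0.19 below its mean on array 1 and 0.22 above on array 2. Such shares were not particular to heart muscle or visceral endoderm. Of cytosolic and mitochondrial ribosomal proteins, 34 of 50 and 51 of 76 were lowest on array 1.

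Other genes were higher on array 1. Egr2, the zinc finger factor of the hindbrain and an immediate early gene, read 9.23 on array 1 and 4.43 and 3.91 on the others, below the background level, through both of its probe sets. The noncoding transcript of the reporter locus, Gt(ROSA)26Sor, read 7.39, 3.03 and 3.67. Kdm5d and Eif2s3y on the Y chromosome read 8.59, 4.02 and 4.42 and 10.41, 3.96 and 4.01, while Xist, the RNA of the inactive X, read 5.46, 12.63 and 12.79. Sry, also on the Y chromosome, read 8.27, 8.46 and 8.38, at the same level where Kdm5d and Eif2s3y were below the background level. This probe set, whose name marks probes shared with other transcripts, thus did not follow them. The other of the 2 probe sets of Sry averaged 5.69. The labels used here do not give the sex or the stage in somites of the embryos behind each array.

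Array 3 stood apart in neuronal, endothelial and erythroid genes. Of 26 neuronal markers 22 were highest on array 3, against 35.3% of all genes, and the mean of the list was 0.49 above its mean over the 3 arrays there. Nefl, a neurofilament, read 9.69, 9.20 and 11.43 and Dcx, doublecortin, 6.75, 7.27 and 9.12. Markers of neural progenitors differed less, by at most 0.10 from their mean on any array. Endothelial markers were lowest on array 3 in 22 of 24 genes, against 29.1% of all genes, and the list was 0.35 below its mean there, with Tek at 9.17, 9.19 and 8.22. Erythroid markers were lowest there in 16 of 17, against the same 29.1%, and the list was 0.37 below its mean, with Klf1 at 8.64, 8.55 and 7.42. Gcg, the glucagon gene, read 4.10 and 4.02 on arrays 1 and 2 and 9.15 on array 3, with 1 probe set, and of the other pancreas markers Sst read 6.89, 6.99 and 7.36 and Cpa1 4.95, 6.43 and 5.39.

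**Figure D5:**
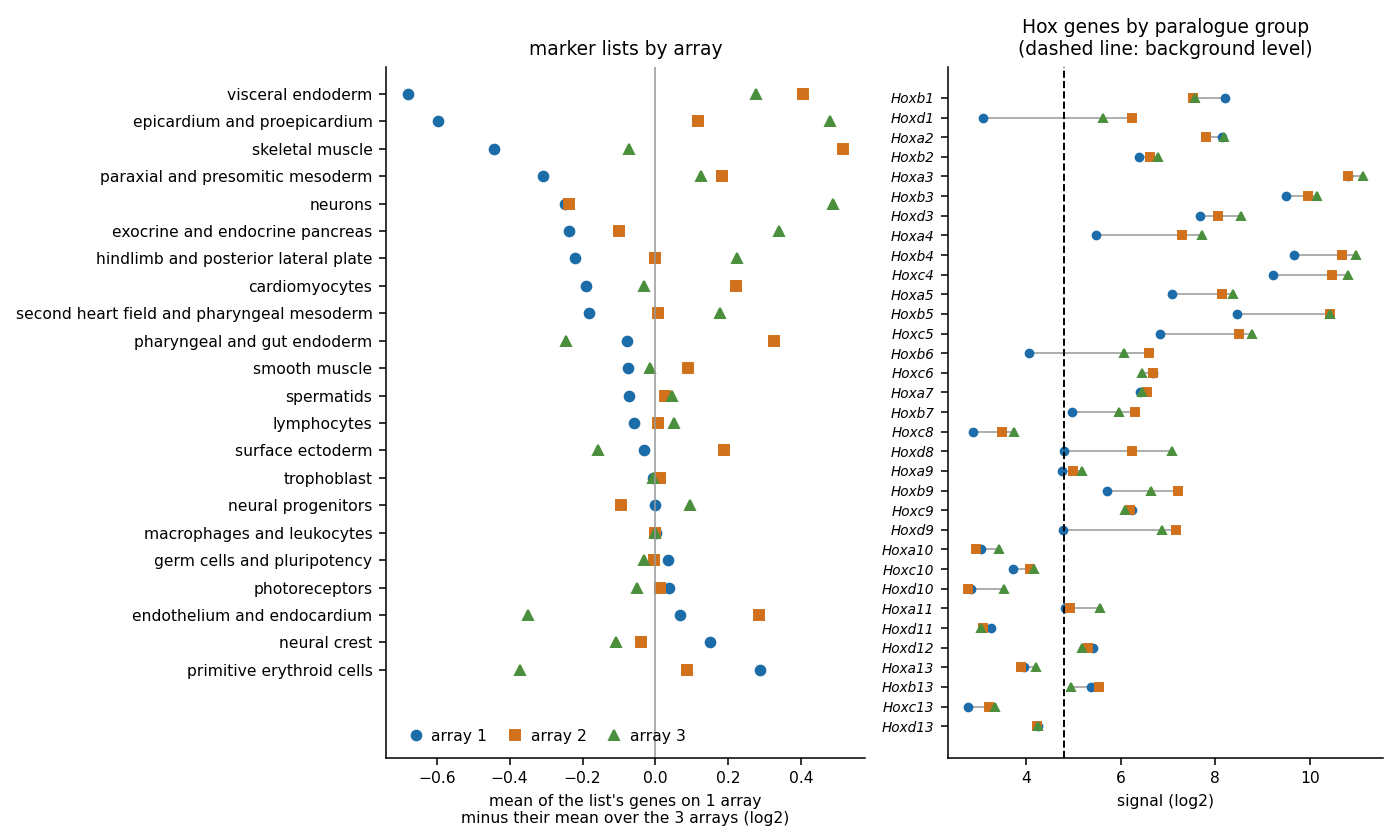
Left, mean log2 signal of each marker list on 1 array minus its mean over the 3 wild-type arrays, for array 1 (circles), 2 (squares) and 3 (triangles); right, log2 signals of 33 Hox genes on the same arrays, ordered by paralogue group, with the background level of 4.80 dashed. Array 1 is lowest for visceral endoderm at -0.68 and for most Hox genes of groups 4 to 9, and array 3 is highest for neurons at 0.49.

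The classes of housekeeping genes moved little between arrays. Cytosolic ribosomal proteins were 0.08 below their mean on array 1 and 0.08 above it on array 2, and genes of the respiratory chain 0.13 below and 0.12 above, with 69 of 103 lowest on array 1, against 37.3% of all genes. No cytosolic ribosomal protein had a range of 1 or more, and 1 respiratory chain gene did. On the same array the visceral endoderm list was 0.68 below its mean and the Hox family 0.49 below.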

How the data were processed

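The arrays carried biotin-labelled cDNA that was amplified from total RNA of the sorted cells with the WT-Ovation Pico kit, per the labels' protocols. The deposited series table holds log2 signals of 45101 probe sets for 3 wild-type and 3 mutant arrays. The scale was read from the values. How the authors corrected background and normalized the arrays is stated neither in the labels nor in the table. The mutant values entered only 1 alternative choice of probe set. Probe sets were named from GEO's platform annotation, and 34741 of 34945 names were updated by gene ID to RefSeq. A further 932 probe sets with several genes, 9160 with none and 64 controls were left out of the gene counts.

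Levels, SDs, ranges and counts were computed with python 3.11.15, pandas 2.3.3 and numpy 2.4.6, and the scripts were tested on simulated data. No test was run, since a single group of 3 arrays has nothing to be tested against. A gene counts as above the background level when all 3 arrays exceed the 95th percentile of the bacterial controls' means. An array stands apart in a gene when the other two lie closest to each other.

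Genes were named by rank and by a fixed panel. The ranks covered the 30 brightest genes and transcription factors, the first 3 of each list and the brightest of each transcription factor family. They also covered the 20 widest ranges and the 10 smallest SDs. Other genes, for a count or contrast, were chosen after their values were seen. The members and lists were chosen with earlier results of these data known, and so was the motif search. Alternatives covered the probe set, the background level, the number of arrays, scaling and left-out arrays. Leaving out probe sets with shared probes, the line at the median gene and the Hox paralogue groups were added after seeing the data. Counts over the median gene were not repeated under the alternatives.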

Additional observations from a re-analysis of the deposited data

How the results depend on the processing

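The totals over all genes, transcription factors, abundant classes, signalling lists and the whole set of cell type markers stayed within 1.5 times their values under each alternative for level, scaling or probe set. Of 67 counts of single factor families, abundant classes and signalling lists, 10 moved by more with the level raised by 1, 4 with the median over a gene's probe sets, 3 with the chemosensory level and 2 without probe sets that share probes. With the level raised by 1, FGF ligands gave 7 and BMP ligands 5. Genes above the background level numbered 11317 with that level raised by 1, to 5.80, 12126 with the level from chemosensory receptors, 5.51, and 14279 on at least 2 arrays. The count of genes with a range of 1 or more, 908, fell between 362 and 484 when an array was left out, as fewer arrays give smaller ranges. With the chemosensory level the counts were 6 for epicardium, 7 for paraxial mesoderm, 3 for hindlimb, 4 for germ cells, 1 for trophoblast, 2 for photoreceptors and 3 for spermatids. With the level raised by 1 they were 6 for epicardium, 12 for visceral endoderm, 5 for macrophages, 6 for paraxial mesoderm, 3 for hindlimb, 4 for skeletal muscle, 3 for germ cells, 1 for trophoblast, 0 for photoreceptors, 3 for spermatids and 1 for lymphocytes. At the highest bacterial control, 5.08, photoreceptors gave 3. The count of 14 Hox genes lower on array 1 was 14 or 15 throughout. Of 239 levels of named genes, 148 moved by more than their SD with the median over a gene's probe sets, and 36 of 234 without probe sets that share probes. Leaving out those sets, a choice made after seeing the data, left 59 of the 100 brightest genes in the listed classes. No paired analysis was possible because no comparison between groups was made. A probe near 4.80 has only a bound, and array signals limit any order of genes.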

Other observations

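Probe sets that the annotation used here left without a gene name also carried signal in the wild-type cells. Of 9160 such probe sets, 5336 (58.3%) were above the background level of 4.80 on all 3 arrays, and 189 were above 10 on all 3. They entered no count of genes.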
